A study of Rattus norvegicus with 6 samples.

Results

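The genes described are 10 AP-1 and immediate early genes. Immediate early genes are a class that growth factors, serum and stress switch on within a short time and without new protein synthesis. Not all 10 belong to it in this strict sense, as is said below of Jund and Fosl1. The 10 genes comprise the Fos family (Fos, Fosb, Fosl1, Fosl2) and the Jun family (Jun, Junb, Jund), whose proteins pair to form the transcription factor AP-1, together with the zinc finger transcription factor gene Egr1, the nuclear protein gene Ier2 and the phosphatase gene Dusp1. They were picked by symbol from a count table of 19825 rat genes, and all 10 were found in it. The comparison was between 3 libraries from H9C2 cells in which small interfering RNA was used to lower PUM2 (siPUM2 1, 2 and 3) and 3 from control cells (NC 1, 2 and 3) whose labels describe a transfection with empty vector. H9C2 is a myoblast line derived from embryonic rat heart, and PUM2, a Pumilio-family protein that binds messages, is known to lower the stability or translation of its targets. The labels mention no non-targeting small interfering RNA, so an effect of lower PUM2 and one of the kind of nucleic acid transfected cannot be told apart. The time between transfection and harvest, which matters for genes of this class, is not given in the sources used here.

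As background, Fos proteins need a partner, mostly a Jun protein, to bind DNA, whereas Jun proteins can also pair among themselves. The ERK, JNK and p38 MAP kinases raise transcription of these genes and the activity of their products, partly through serum response factor at CArG boxes and through CREB at cyclic AMP response elements. In the heart and in muscle cells, Fos, Jun and Egr1 are known as early responders to stretch, hormones and growth factors. Dusp1 removes phosphate from p38, JNK and ERK and so limits the signal that induces it.

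The libraries held 27704702 to 30579237 counts, and 1 count was worth 0.0327 to 0.0361 CPM (counts scaled to a common library size, with edgeR's TMM factors). Pum2 itself stood at 127, 126 and 120 CPM in siPUM2 1, 2 and 3, against 223, 228 and 225 CPM in NC 1, 2 and 3, and its log2 fold change was -0.86 ± 0.0279 (SE; adjusted p = 9.23e-19, edgeR). The share of ribosomal RNA was 0.102% in siPUM2 3 and between 0.0275% and 0.0510% elsewhere. Of 12 cardiomyocyte markers, Myh6, Myh7, Actn2, Tnni3, Ryr2 and Mybpc3 were under 1 CPM in every library, although the labels call the cells cardiomyocytes. Another 5 had a mean of at least 1 CPM: Tnnt2, Pln, Nppb, Nkx2-5 and Gata4. The cardiac factors Nkx2-5 and Gata4 were at 17.9 and 9.52 CPM in siPUM2 and at 19.7 and 10.4 CPM in NC. Nppb was at 2.35 CPM in siPUM2 and 1.86 CPM in NC. The summed cardiomyocyte markers ran from 475 to 528 CPM in siPUM2 and from 308 to 365 CPM in NC, most of it Tnnt2, and of 6 tested 2 rose (Tnnt2 and Pln) and none fell. The summed skeletal myoblast markers ran from 157 to 168 CPM in siPUM2 and from 169 to 188 CPM in NC, about 84.2 CPM of it in siPUM2 and 81.3 CPM in NC from the myoblast factor Myod1, which did not pass (adjusted p = 0.371, edgeR). Of the 6 myoblast markers tested 3 fell, with a list median log2 fold change of -0.44: Myog, the factor that drives myoblast differentiation (9.23 ± 0.445 CPM in siPUM2 and 20.1 ± 4.23 CPM in NC, SD, n = 3 each; log2 fold change -1.12), and the muscle myosin genes Mylpf (-0.93) and Myh3 (-0.93). Myh3 was low, at 0.847 CPM in siPUM2 and 1.63 CPM in NC. Des and Mymk rose (0.17 each). The myoblast markers Myf6 and Chrna1 were under 1 CPM in every library, and Myf5 had no match in the count table. Of 6 endothelial markers 5 were under 1 CPM in every library, as were all 6 Schwann and neural markers. The summed fibroblast markers ran from 16609 to 17051 CPM in siPUM2 and from 16940 to 17045 CPM in NC, nearly all of it Col1a1 and Col1a2. The fibroblast markers Pdgfra, Dcn and Lum were under 1 CPM in every library, and Tcf21 had no match in the count table. Of the 4 fibroblast markers tested, Thy1 rose (0.31), Postn (-0.63) and Col1a1 (-0.08) fell, and Col1a2 did not pass. The summed macrophage and leukocyte markers, nearly all Cd14, ran from 38.7 to 40.6 CPM in siPUM2 and from 36.8 to 37.7 CPM in NC. Of the 6 macrophage and leukocyte markers, Ptprc and Adgre1 had no match in the count table. Cd68, Csf1r and Itgam were under 1 CPM in every library, and none of the 3 tested (Cd14, Cd68 and Csf1r) was called. The part of these marker differences in the results below was not tested. The marker genes singled out here were chosen after their values were seen. No label ties a library to its own culture, and the p-values below therefore speak only of the spread among these 6 libraries, part or all of which may be technical.

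Most of the 10 genes were lower in siPUM2, by modest amounts, and Dusp1 was higher. At an adjusted p under 0.05, 7 of the 10 fell (Egr1, Ier2, Fosl1, Jun, Junb, Fosl2, Jund), 1 rose (Dusp1) and 2 (Fos, Fosb) did not pass, with a median log2 fold change of -0.18 against 0.00106 over all genes tested. Over the 12985 genes tested, 28.4% were called, 13.3% lower and 15.1% higher. Among the 6956 genes with a mean of at least 20 CPM, where 8 of the 10 genes lie, all 8 of these were called and 41.1% of all genes were. The siPUM2 and NC libraries did not overlap for 8 of the 10 genes, while 39.9% of all genes tested had no overlap. All 10 genes passed the filter on low counts. In a stricter test that asks for more than a 1.1-fold change, Fosl2 and Jund were no longer called, which left 5 falls and the rise of Dusp1. Over all 12985 genes this stricter test called 1032, of which 669 were higher and 363 lower. The libraries are bulk RNA, in which fewer cells that make a message cannot be told apart from less message per cell.

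**Figure D1:**
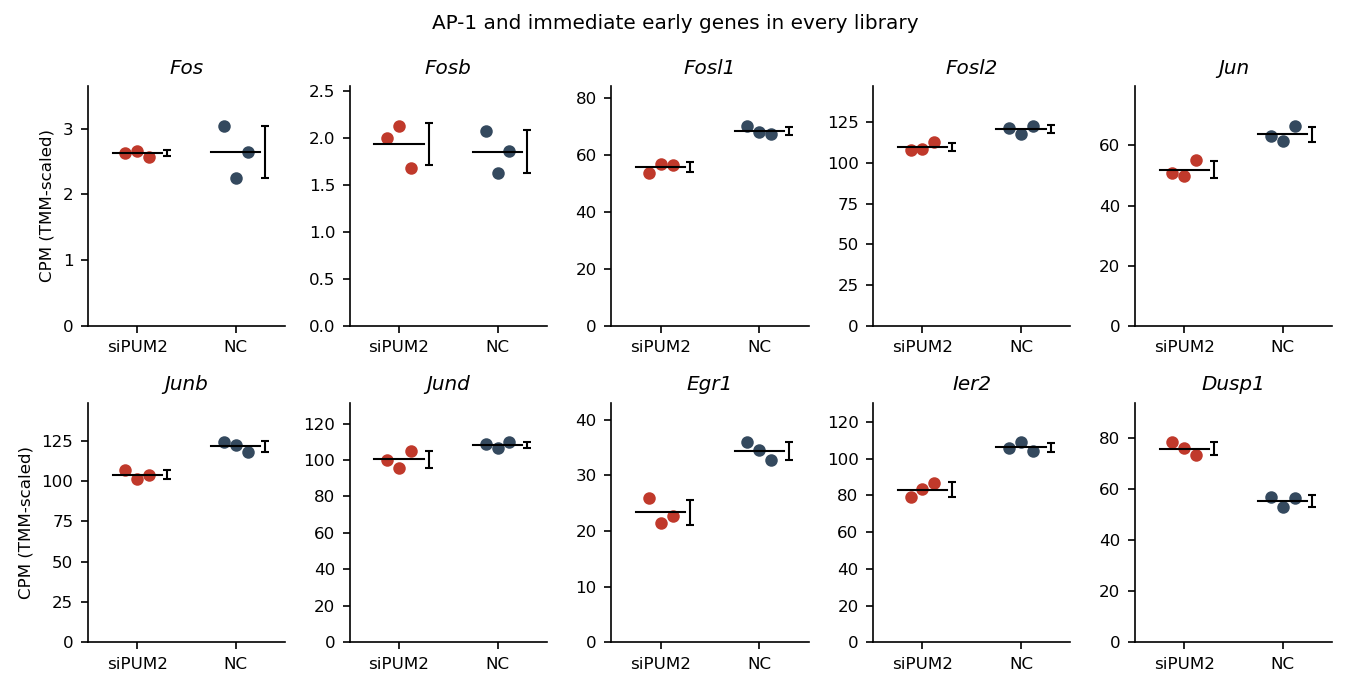
CPM of each gene (vertical axis, from 0, its own scale in each panel) in the 3 siPUM2 and 3 NC libraries. Points are libraries, horizontal lines are means and bars are SD; the groups are apart in every panel but those of Fos and Fosb, and among the 8 genes whose groups are apart Dusp1 alone has siPUM2 above NC.

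Egr1, which binds GC-rich promoter sites and is itself a target of serum response factor, had the largest fall of the 10. It was measured at 25.9, 21.5 and 22.8 CPM in siPUM2 1, 2 and 3, against 35.9, 34.6 and 32.7 CPM in NC 1, 2 and 3. The highest siPUM2 library was therefore below the lowest NC library, and siPUM2 1 stood above the other siPUM2 libraries. The means were 23.4 ± 2.25 CPM in siPUM2 and 34.4 ± 1.60 CPM in NC (SD, n = 3 each), a log2 fold change of -0.56 ± 0.0638 (SE) that left 68.0% of the NC level (95% interval of the ratio 0.621 to 0.744; adjusted p = 9.98e-08, the quasi-likelihood test of edgeR, Benjamini-Hochberg adjusted over all genes tested). The files place Egr1 on chromosome 18.

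Ier2 (chromosome 19), a short-lived nuclear protein that is known as a regulator of transcription and cell motility, was at 78.9, 83.5 and 87.0 CPM in siPUM2 1, 2 and 3, against 105.9, 108.8 and 103.9 CPM in NC 1, 2 and 3. All siPUM2 libraries lay below all NC libraries. Its log2 fold change was -0.35 ± 0.0336 (SE), which left 78.3% of the NC level (interval of the ratio 0.747 to 0.822; adjusted p = 3.84e-09, edgeR).

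Dusp1 (chromosome 10), the phosphatase that is switched on by the MAP kinases it inactivates, went the other way. It was at 78.3, 76.0 and 73.4 CPM in siPUM2 1, 2 and 3, against 57.1, 52.9 and 56.7 CPM in NC 1, 2 and 3. Each siPUM2 library exceeded each NC library. The log2 fold change of 0.45 ± 0.0404 (SE) was a 1.37-fold rise (interval 1.29 to 1.45; adjusted p = 1.27e-09, edgeR), and it had the lowest p of the 10 genes. On the FPKM scale (fragments per kilobase of gene, scaled to library depth, which lets genes of different length be compared), the ratio of Dusp1 to Egr1 was 2.42, 2.82 and 2.57 in siPUM2 1, 2 and 3, against 1.27, 1.22 and 1.38 in NC 1, 2 and 3. This ratio follows from the changes of both genes already given and was not tested.

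**Figure D2:**
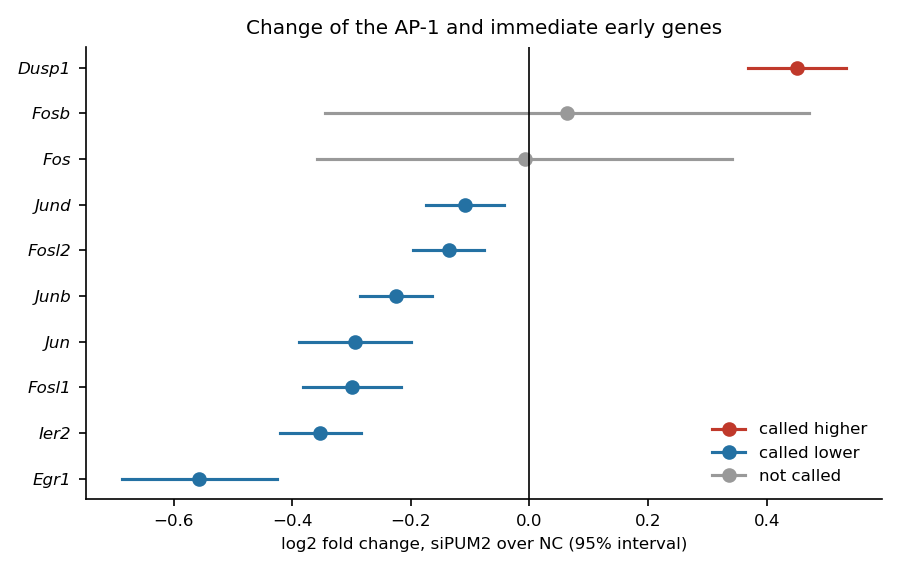
Log2 fold change of siPUM2 over NC (horizontal axis) with its 95% interval for each gene, sorted by size. Dusp1 is at 0.45 with Egr1 at the other end at -0.56, and the intervals of Fos and Fosb span 0.

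The promoters of Egr1, Ier2, Jund and Dusp1 are shown because they hold the full response elements through which immediate early genes are known to be induced, and Ier2, Jund and Dusp1 share the same element. The RefSeq table of rat promoters (assembly GRCr8) matched 8 of the 10 genes, without Fos and Jun. Each sequence is the 250 bases before the annotated start, read 5′ to 3′ on the strand of the gene, and capitals mark CArG boxes and the cyclic AMP response element core TGACG, which reads CGTCA where it lies on the opposite strand. Their places in GRCr8 are chr18:26736828-26737077 (plus strand) for Egr1, chr19:40399123-40399372 (plus) for Ier2, chr16:18769772-18770021 (minus) for Jund and chr10:17184603-17184852 (plus) for Dusp1.
Egr1: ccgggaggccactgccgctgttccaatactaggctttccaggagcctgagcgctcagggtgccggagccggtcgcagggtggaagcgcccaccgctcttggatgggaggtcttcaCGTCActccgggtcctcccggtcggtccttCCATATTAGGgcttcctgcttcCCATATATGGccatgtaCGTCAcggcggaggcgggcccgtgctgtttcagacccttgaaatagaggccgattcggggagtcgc
Ier2: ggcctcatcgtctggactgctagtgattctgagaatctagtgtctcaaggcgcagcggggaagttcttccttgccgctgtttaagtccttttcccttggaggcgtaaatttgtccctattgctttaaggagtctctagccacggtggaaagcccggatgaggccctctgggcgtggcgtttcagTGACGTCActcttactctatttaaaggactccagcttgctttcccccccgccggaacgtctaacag
Jund: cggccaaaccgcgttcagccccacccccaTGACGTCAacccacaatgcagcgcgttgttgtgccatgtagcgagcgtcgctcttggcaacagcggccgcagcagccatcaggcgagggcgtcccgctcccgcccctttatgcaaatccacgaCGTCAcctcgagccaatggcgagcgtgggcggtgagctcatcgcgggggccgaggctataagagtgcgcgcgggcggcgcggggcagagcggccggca
Dusp1: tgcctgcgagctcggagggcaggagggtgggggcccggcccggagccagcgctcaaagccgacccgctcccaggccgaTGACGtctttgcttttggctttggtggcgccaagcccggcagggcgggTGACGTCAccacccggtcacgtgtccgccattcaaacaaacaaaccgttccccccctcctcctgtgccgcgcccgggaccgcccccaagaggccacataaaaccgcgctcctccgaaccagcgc

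Egr1 held CArG boxes that begin 105 and 83 bases before its start, and no other of the 8 promoters held one. A CArG box, searched on both strands over the 250 bases before and 50 bases after each start, occurred in 1.64% of the 27456 promoters in the table and in 1.45% of those of tested genes. The full cyclic AMP response element TGACGTCA, a palindrome that contains the core on both strands, lay 66 bases before the start of Ier2, 124 before that of Dusp1 and 221 before that of Jund, and occurred in 1.91% of all promoters and in 3.30% of the 9857 promoters of tested genes. The core TGACG outside a full element was also found in Egr1, Fosl1, Junb, Jund and Dusp1, and 22.0% of all promoters and 32.2% of those of tested genes held the core. GCGNGGGCG, the form of the EGR site searched, was found at 3 places in Jund and 2 in Fosl2, and in 5.29% of all promoters and 9.91% of those of tested genes. The AP-1 site TGACTCA was found in none of the 8 windows and in 4.53% of all promoters and 3.31% of those of tested genes. These are matches of letters only, and with 1 gene that rose among the 8 promoters they were not compared with the direction of change.

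**Figure D3:**
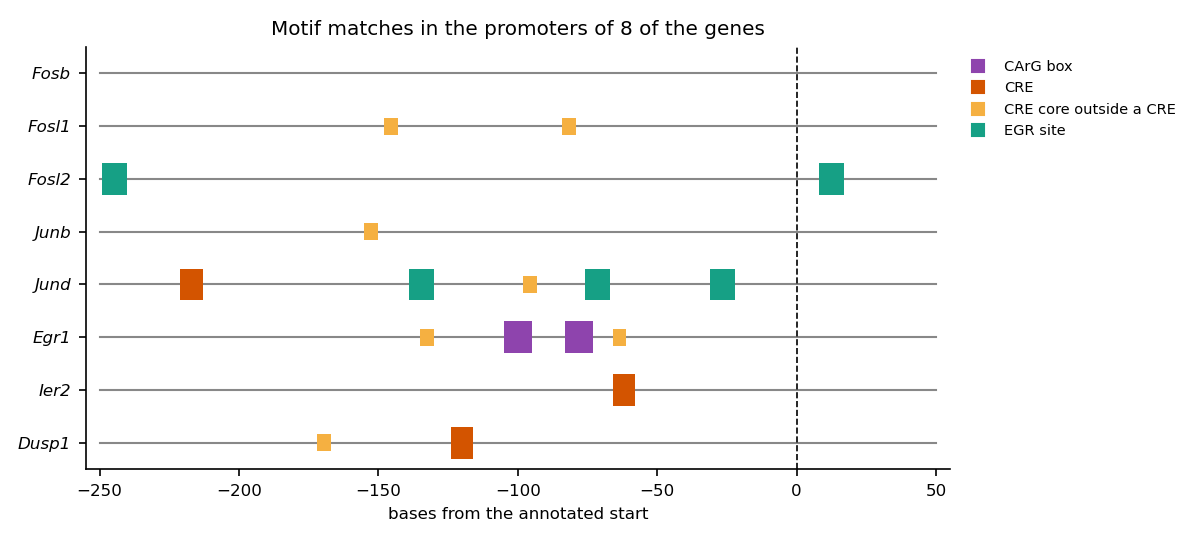
Positions of motif matches along the promoters of 8 of the genes, in bases from the annotated start (dashed line), with 250 bases before it and 50 after. Boxes are CArG boxes, full cyclic AMP response elements (CRE), CRE cores outside a full element, and EGR sites; only Egr1 has CArG boxes, and Ier2, Jund and Dusp1 have a full CRE.

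The Jun family fell in siPUM2, least of all for Jund. Jun (chromosome 5), the prototype partner of Fos and the target of JNK, was at 50.8, 49.8 and 55.1 CPM in siPUM2 1, 2 and 3, against 63.1, 61.4 and 66.4 CPM in NC 1, 2 and 3. The groups did not overlap, and the log2 fold change was -0.29 ± 0.0460 (SE), or 81.5% of the NC level (adjusted p = 1.34e-05, edgeR). Junb (chromosome 19), which activates transcription more weakly than Jun and can oppose its effect on growth, was at 106.7, 101.2 and 103.6 CPM in siPUM2 1, 2 and 3, against 123.9, 122.5 and 117.8 CPM in NC 1, 2 and 3. Again every siPUM2 library was below every NC library, and the log2 fold change was -0.22 ± 0.0298 (adjusted p = 1.11e-06, edgeR). Jund (chromosome 16), the member that is usually expressed at a steady level rather than induced, was at 100.1, 95.8 and 105.1 CPM in siPUM2 1, 2 and 3, against 108.5, 106.5 and 109.6 CPM in NC 1, 2 and 3. Its highest siPUM2 library (siPUM2 3) nearly reached its lowest NC library (NC 2). The log2 fold change of -0.11 ± 0.0319 (adjusted p = 0.0105, edgeR) was the smallest of the 7 falls, and the call was lost without siPUM2 2, where it was -0.08 (adjusted p = 0.116).

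In the Fos family, the genes expressed at a substantial level fell and the low genes gave no call. Fosl1 (chromosome 1), which encodes Fra-1 and is itself known as an AP-1 target induced later and for longer than Fos, was at 53.5, 56.7 and 56.5 CPM in siPUM2 1, 2 and 3, against 70.0, 67.9 and 67.4 CPM in NC 1, 2 and 3. The groups were well apart, and the log2 fold change was -0.30 ± 0.0404 (SE), or 81.2% of the NC level (adjusted p = 1.47e-06, edgeR). Fosl2 (chromosome 6), which encodes Fra-2, was at 108.2, 108.3 and 112.8 CPM in siPUM2 1, 2 and 3, against 121.3, 118.1 and 122.7 CPM in NC 1, 2 and 3. The groups did not overlap, but the fall was small, at a log2 fold change of -0.14 ± 0.0288 (adjusted p = 0.000579, edgeR).

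Fos (chromosome 6), the classic serum-induced partner of Jun, was low in all libraries. It had 74, 74 and 75 counts in siPUM2 1, 2 and 3, against 85, 68 and 81 counts in NC 1, 2 and 3. The siPUM2 libraries lay within the range of the NC libraries. The log2 fold change was -0.01 ± 0.171 (SE; adjusted p = 0.982, edgeR), and the 95% interval of the ratio of siPUM2 to NC ran from 0.780 to 1.27, which includes falls as large as those of Fosl1 and Jun. Fosb (chromosome 1), which also encodes the truncated protein deltaFosB, had 56, 59 and 49 counts in siPUM2 1, 2 and 3, against 58, 49 and 57 counts in NC 1, 2 and 3. Its groups overlapped too, with a log2 fold change of 0.06 ± 0.199 (adjusted p = 0.856) and an interval of the ratio from 0.787 to 1.39. At this depth a change of the size seen in the other AP-1 genes was thus not detectable for either gene. RefSeq lists a long noncoding RNA that overlaps Fosb, LOC103691049, and it had 0 counts in every library but NC 2, where it had 3.

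Per gene length, Jund, Junb and Ier2 were the most abundant of the 10 and Fosb the least. In siPUM2 the mean levels were 52.8 FPKM for Jund, 51.4 for Junb and 48.2 for Ier2, whose neighbours in this order overlapped between libraries, then 35.1 for Dusp1 and 29.6 for Fosl1. Jun (14.8 FPKM), Egr1 (13.5) and Fosl2 (13.3) followed in siPUM2, again with overlap between neighbours, and Fos (1.46 FPKM) and Fosb (0.480) closed the order. In NC the order was Ier2 (61.7 FPKM), Junb (60.3), Jund (57.1), Fosl1 (36.5), Dusp1 (25.7), Egr1 (19.97), Jun (18.2), Fosl2 (14.7), Fos (1.48) and Fosb (0.457), and here the neighbours that overlapped were Ier2 with Junb and Egr1 with Jun. Dusp1 was above Fosl1 in all 3 siPUM2 libraries and below it in all 3 NC libraries. Fos and Fosb together came to 1.85 to 2.01 FPKM in siPUM2 and 1.66 to 2.20 FPKM in NC, so that almost all Fos-family message was Fosl1 and Fosl2.

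**Figure D4:**
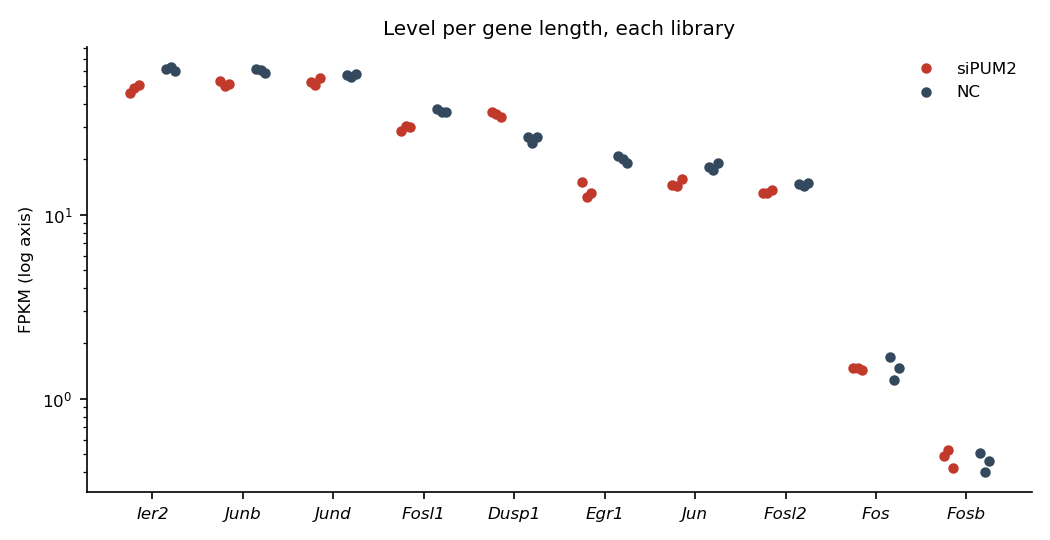
FPKM (log axis) of each gene in the 3 siPUM2 libraries (red) and 3 NC libraries (dark), ordered by the NC mean. Fos and Fosb lie below 2 FPKM in both groups and the other genes above 10.

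Summed over its members, the Fos family came to 44.8 ± 1.04 FPKM in siPUM2 and 53.1 ± 1.06 FPKM in NC, and the Jun family to 119 ± 3.72 FPKM in siPUM2 and 136 ± 1.14 FPKM in NC (SD, n = 3 each). These sums follow from the genes above and were not tested. Within the Fos family, Fosl1 took 65.4%, 66.6% and 66.0% of the sum in siPUM2 1, 2 and 3, against 68.8%, 69.3% and 68.1% in NC 1, 2 and 3. Within the Jun family, Jund took 43.9%, 44.0% and 45.2% in siPUM2 1, 2 and 3, against 41.9%, 41.8% and 42.7% in NC 1, 2 and 3. The makeup of both families thus moved by only a few percentage points, away from Fosl1 and toward Jund.

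The spread between libraries of a group was small for the genes that were called. For these 8 genes the coefficient of variation of CPM ran from 2.35% (Fosl2) to 9.62% (Egr1) in siPUM2 and from 1.46% (Jund) to 4.65% (Egr1) in NC. Fos varied by 1.73% in siPUM2 and 14.9% in NC, and Fosb by 11.7% in siPUM2 and 12.2% in NC. The genes whose log2 CPM followed a given one most closely over the 6 libraries, among 10664 compared, are given as a description without a test; the 6 points share the difference between the groups. For Jun they were Nr2f1, Cers6 and Uqcc1 (Pearson r of 0.999, 0.996 and 0.996), for Egr1 Gtf2h4, Slc25a5 and Upf1 (0.998, 0.995 and 0.995), all 6 of which were called lower. For Fos they were Coil, Hs1bp3 and Tor1aip2 (0.986, 0.971 and 0.970), none of which was called. Fos had only 68 to 85 counts a library and no call between the groups. How far its matches follow counting noise was not tested.

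Related genes were counted in lists of the same pathway, against the 28.4% of all genes called. Among kinases and transcription factors that act upstream of immediate early genes, 7 of 34 tested rose, 5 fell and 22 did not pass, with a median log2 fold change of 0.000938. That is 35.3% called, beside 28.4% of all genes and 41.1% of those with at least 20 CPM. Rps6ka3, the ERK-activated kinase RSK2, rose to 148 ± 1.147 CPM in siPUM2, against 131 ± 0.739 CPM in NC (SD, n = 3 each; log2 fold change 0.17, adjusted p = 1.13e-05, edgeR). Map3k5, which encodes ASK1, a kinase upstream of JNK and p38, rose 1.29-fold. Elk4, a ternary complex factor that binds DNA with serum response factor, fell (log2 fold change -0.22, adjusted p = 0.000150), as did Rps6ka4, the histone and CREB kinase MSK2 (-0.16, adjusted p = 0.000386). Named after their values were seen, the other genes that fell were Srf (-0.13), Elk3 (-0.09) and Mrtfb (-0.42), which encode serum response factor, another ternary complex factor and a serum response factor coactivator. The other genes that rose were Araf, Map2k2, Mapk8, Mapk9 and Map3k11, between 0.10 and 0.23. They are kinase genes, as are most genes of this list. Elk1 (-0.11, adjusted p = 0.146, edgeR) and Mrtfa (-0.06, adjusted p = 0.169), relatives of Elk3, Elk4 and Mrtfb, did not pass. Only Map3k5 of this list was called in the test against a 1.1-fold change.

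Of 18 other immediate early transcription factor genes, 6 fell, 1 rose and 11 did not pass, with a median log2 fold change of -0.08. That is 38.9% called, beside 28.4% of all genes and 41.1% of those with at least 20 CPM. Atf3, a stress-induced bZIP repressor, was at 1.32, 1.40 and 2.09 CPM in siPUM2 1, 2 and 3, against 2.76, 3.15 and 3.10 CPM in NC 1, 2 and 3, a low gene whose groups did not overlap (log2 fold change -0.90 ± 0.195, SE; adjusted p = 0.000771, edgeR). Myc, the growth-promoting transcription factor, fell to 29.2 ± 2.38 CPM in siPUM2, against 36.6 ± 2.74 CPM in NC (log2 fold change -0.32, adjusted p = 0.000259). Id1, an inhibitor of basic helix-loop-helix factors (-0.29), and the repressor Klf10 (-0.29) fell as well. Named after their values were seen, Egr2, the paralogue of Egr1 (-0.65), and the nuclear receptor gene Nr4a2 (-0.65) were the other falls. Both were low and did not pass at an adjusted p under 0.01. Egr2 was at 1.996 CPM in siPUM2 and 3.123 CPM in NC (adjusted p = 0.0117, edgeR). Nr4a2 was at 1.602 CPM in siPUM2 and 2.504 CPM in NC (adjusted p = 0.0199, edgeR). Relatives that did not pass, named likewise, were Egr3 (-0.47, adjusted p = 0.155), Nr4a1 (0.03) and Nr4a3 (0.07). The gene that rose, also named after its value was seen, was the small Maf factor Maff (0.17).

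Of 27 immediate early genes with other functions, 10 fell, 3 rose and 14 did not pass, with a median log2 fold change of -0.08. That is 48.1% called, beside 28.4% of all genes and 41.1% of those with at least 20 CPM. Zfp36l2, an RNA-binding protein that speeds the decay of AU-rich messages, fell to 393 ± 4.26 CPM in siPUM2, against 487 ± 9.21 CPM in NC (log2 fold change -0.31 ± 0.0250, SE; adjusted p = 1.40e-10, edgeR). The small GTPase gene Rhob (-0.29), the Ier2 relative Ier5 (-0.29) and Arc (-0.53), known best from neurons, fell too. The genes that rose, named after their values were seen, were Rgs2 (0.60), a brake on G-protein signalling, the antiproliferative gene Btg1 (0.18) and the clock gene Per1 (0.18).

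No other MAP kinase phosphatase in the list rose with Dusp1. Of 7 tested, 5 fell, none rose and 2 did not pass, with a median log2 fold change of -0.23. That is 71.4% called, beside 28.4% of all genes and 41.1% of those with at least 20 CPM. Dusp5, the nuclear ERK phosphatase, was at 32.1, 32.0 and 33.5 CPM in siPUM2 1, 2 and 3, against 46.0, 43.2 and 41.2 CPM in NC 1, 2 and 3 (log2 fold change -0.42 ± 0.0558, SE; adjusted p = 1.39e-06, edgeR). Its groups were well apart. The cytoplasmic ERK phosphatases Dusp6 (-0.22, adjusted p = 4.92e-07) and Dusp7 (-0.23, adjusted p = 1.55e-06) and the JNK and p38 phosphatase Dusp10 (-0.33, adjusted p = 0.00165) fell. Named after its value was seen, Dusp16 also fell (-0.19). On log2(FPKM + 1) or log2(FPKM + 0.1), 3 of the 7 were called, all lower.

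Among 17 other bZIP genes whose products can pair with or resemble AP-1, 1 rose, 1 fell and 15 did not pass, with a median log2 fold change of -0.000628. That is 11.8% called, beside 28.4% of all genes and 41.1% of those with at least 20 CPM. Nfe2l1, known as the activator of proteasome genes, rose to 264 ± 4.87 CPM in siPUM2, against 211 ± 3.55 CPM in NC (log2 fold change 0.32, adjusted p = 1.36e-10, edgeR). Atf7, a relative of Atf2 that pairs with Jun, fell (-0.33, adjusted p = 0.000802). Crem and Cebpb had log2 fold changes of 0.22 (adjusted p = 0.0535) and -0.10 (adjusted p = 0.0580). The number called was 6 without siPUM2 3 (1 higher, 5 lower) and 4 without NC 3 (3 higher, 1 lower), so that the count for this list rests on those libraries.

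Genes taken from background knowledge as targets of AP-1 moved in both directions. Of 16 tested, 6 fell, 3 rose and 7 did not pass, with a median log2 fold change of 0.01. That is 56.25% called, beside 28.4% of all genes and 41.1% of those with at least 20 CPM. Plaur, the urokinase receptor, rose to 109 ± 2.12 CPM in siPUM2, against 93.4 ± 5.21 CPM in NC (SD, n = 3 each; log2 fold change 0.22, adjusted p = 8.93e-06, edgeR). Cyclin D1 (Ccnd1) fell to 929 ± 11.3 CPM in siPUM2, against 1005 ± 11.6 CPM in NC (-0.11, adjusted p = 0.000561), and the quinone reductase gene Nqo1 fell by 0.23 on the log2 scale (adjusted p = 1.13e-05). The metalloproteinase genes Mmp9, Mmp10 and Mmp13, and also Plau and Mt2A, were under the filter on low counts and were not tested. Mmp1 and Mmp3 had no match in the count table.

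**Figure D5:**
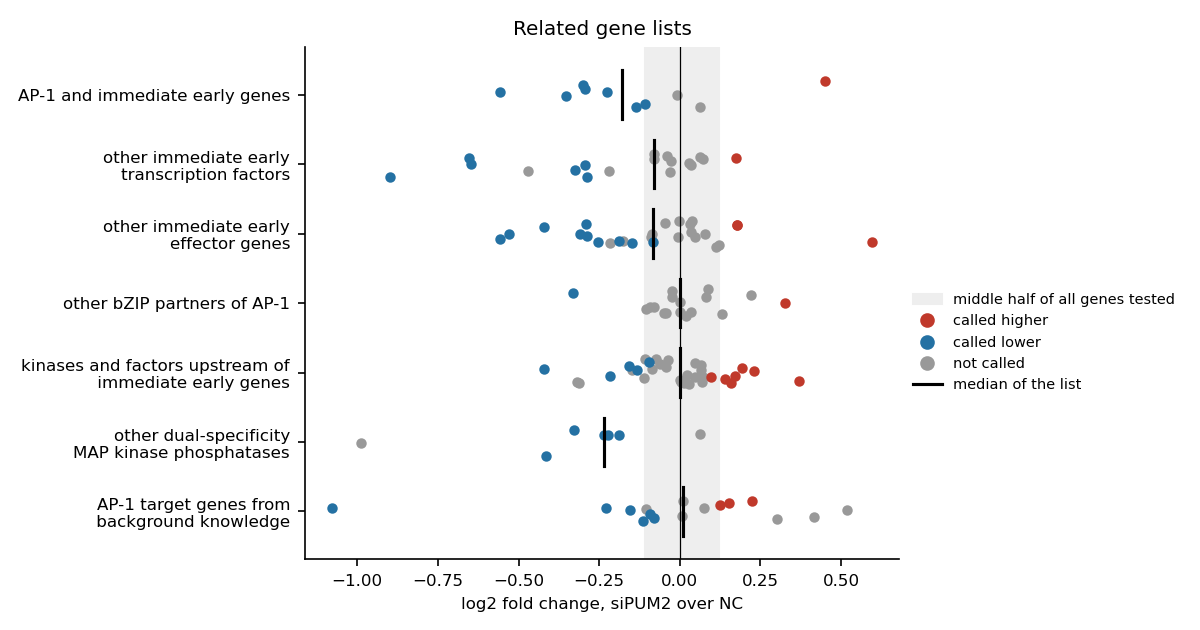
Log2 fold change of siPUM2 over NC (horizontal axis) for each gene tested in the 10 AP-1 and immediate early genes and 6 related lists. Points are genes, coloured by call, black bars are list medians and the grey band holds the middle of all genes tested (-0.11 to 0.12); the medians of the 10 genes (-0.18) and of the other phosphatases (-0.23) lie below the band.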

How the data were processed

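Polyadenylated RNA was sequenced as directional paired-end libraries, per the labels' protocols. The deposited gene table holds whole read counts per gene that the authors made from alignments to mRatBN7.2, and HISAT2 and DESeq2 are named in the submitters' processing notes; for the counting program, annotation and versions: not given in the sources used here. A separate deposited table holds FPKM per gene from the authors, and it was used for levels. Counts were analysed in R 4.3.3 with edgeR 4.0.16: filterByExpr kept 12985 of 19825 genes (0.0465% of counts removed), with TMM factors of 0.995 to 1.003, the quasi-likelihood test of siPUM2 against NC, and calls at an adjusted p under 0.05 over all genes tested. The common biological coefficient of variation was 3.47%. DESeq2 1.42.0 and limma 3.58.1 served alternatives. Groups came from the sample titles. The labels name no batch and do not say whether equal numbers pair libraries, so no replicate block entered the main fit. The block was fitted as an alternative. Same-numbered libraries did not deviate together (correlations of 0.0342, 0.0204 and 0.00270). The 10 genes, the lists and the tests were chosen with earlier results of these data known. Besides the 10 genes and Pum2, the text names the 4 genes with the lowest p in each related list (1 of the AP-1 targets is not reported here) and the 3 genes most correlated with each of Fos, Jun and Egr1; others, marker genes included, were chosen after their values were seen, as said beside them. Marker lists of cardiomyocytes, skeletal myoblasts, fibroblasts, endothelium, macrophages and leukocytes, and Schwann and neural cells were summed in CPM; Nppa is not analysed here. Promoters came from RefSeq (GRCr8), matched by symbol.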

Additional observations from a re-analysis of the deposited data

How the results depend on the processing

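Egr1, Ier2, Fosl1, Jun, Junb and Dusp1 kept their direction and their call in each of the 20 alternatives. Jund lost its call without siPUM2 2 (adjusted p = 0.116, edgeR), on log2(FPKM + 1) with no filter (0.0988, limma), at an adjusted p under 0.01 and against a 1.1-fold change, and Fosl2 lost its call against a 1.1-fold change (0.745). Fos and Fosb changed sign without a call: Fos was at 0.0045 with limma voom, and with libraries left out in turn it ran from -0.11 to 0.10 (0.10 without NC 1, 0.0019 without siPUM2 3) and Fosb from -0.027 to 0.15 (-0.027 without NC 2, -0.01 without siPUM2 2). Leaving out each library in turn called 3004 to 3538 of all genes, 7 to 8 of the 10 genes (6 to 7 lower, 1 higher), 5 to 8 other immediate early transcription factors, 12 to 13 genes of other function, 9 to 12 upstream genes, 5 to 6 phosphatases, 2 to 6 bZIP genes and 8 to 10 AP-1 targets. Against a 1.1-fold change, 1032 genes (669 higher, 363 lower), 3 AP-1 targets, 1 upstream gene and 8 genes of other function were called. On log2(FPKM + 1) with no filter, where 19535 genes were tested, 2246 genes, 4 AP-1 targets, 7 upstream genes, 1 bZIP gene and 3 other transcription factors were called, and each FPKM fit called 3 phosphatases. Upper-quartile scaling called 4 bZIP genes. The cause of these changes, the fewer samples, added genes or stricter hypothesis of some settings included, was not tested. With the replicate number as a block, 3731 genes and 8 of the 10 were called (7 lower, 1 higher). NC 1 and NC 2 correlated best with the siPUM2 library of the same number (0.0342 and 0.0204), and NC 3 with siPUM2 2 (0.0370). These correlations are too small to tell whether the number pairs libraries, and it may pair nothing. Depth limits Fos and Fosb, which had 49 to 85 counts a library.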
